A study of Mus musculus with 20 samples.

Results

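Paraspinal tumors of subgroup 2 were set against paraspinal tumors of subgroup 1 in bulk RNA-seq of mouse nerve tumors. The members are the 4 libraries whose titles name a paraspinal subgroup, 2 of subgroup 2 and 2 of subgroup 1, of 20 libraries in the series. Both subgroups came from C57BL/6J mice with the genotype Ink4a/Arf+/-; Nf1fl/fl; DhhCre, so that the mice were heterozygous for Ink4a/Arf and lost floxed Nf1 where DhhCre, active in the Schwann cell lineage, was expressed. Also used were 4 libraries of GEM-PNST, peripheral nerve sheath tumors from mice of the same strain and genotype, which shared 1 sequencing run with the paraspinal libraries. They served for scaling and for the spread between libraries. The mice received no drug and their ages are not given. The remaining libraries of the series are 12 neurofibromas of Nf1fl/fl; DhhCre mice, used here only to choose the genes tested and in 1 alternative fit.

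The labels call the subgroups sub-clusters of the paraspinal tumors, so they may have been drawn from these same expression values. A test between them is then no independent evidence, and with 2 libraries a side the differences are described gene by gene. Total counts were 18474071 and 24314222 in subgroup 2 libraries 1 and 2, against 18949487 and 18490232 in subgroup 1 libraries 1 and 2, and 16282605 to 22218382 in GEM-PNST. Across genes, log2 CPM (counts scaled to the size of each library) had a Pearson correlation of 0.975 within subgroup 2 and 0.958 within subgroup 1, and of 0.910 to 0.926 between libraries of different subgroups.

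Neurofibromin, the product of Nf1, is a GTPase-activating protein that switches RAS off, and its loss in Schwann cells is the founding event of neurofibromas. The Ink4a/Arf locus, Cdkn2a, encodes 2 tumor suppressors, p16Ink4a, which blocks CDK4 and CDK6 and so holds the RB proteins active, and p19Arf, which stabilises p53. Both are classically raised in senescent cells, which stop dividing and often release a mixture of cytokines, chemokines, proteases and growth factor binding proteins called the senescence-associated secretory phenotype. Spinal nerve roots and dorsal root ganglia, where paraspinal tumors arise, also hold myelinating Schwann cells, sensory neurons, satellite glia, fibroblasts and macrophages.

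Defining markers placed all 4 libraries in nerve tissue with ganglion content. Prx, periaxin of myelinating Schwann cells, had 506 and 530.4 CPM in subgroup 2, against 700.1 and 1655 CPM in subgroup 1. Prph, a sensory neuron marker that encodes a neuronal intermediate filament, had 659 and 603 CPM in subgroup 2 and 633 and 741 CPM in subgroup 1, values that overlap. The T cell markers Cd3e and Cd3g together stayed at or below 2.262 CPM in every paraspinal library.

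Library 1 of subgroup 1 stood apart from its partner. It held 1511 CPM of Slc6a2, the noradrenaline transporter, against 3.35 CPM in library 2 of subgroup 1 and 2.18 and 0.812 CPM in subgroup 2. Dbh, which converts dopamine to noradrenaline, had 0.495 and 0.628 CPM in subgroup 2, against 831 and 0.136 CPM in subgroup 1. These transcripts of noradrenergic neurons were therefore carried by 1 library, which also held Th, Ddc, Slc18a2, Hand2 and Slc10a4 well above the other 3. Of the genes counted as lower in subgroup 2 below, 92 had at least 4-fold more in one subgroup 1 library than in the other, and in 78 of these it was library 1. Skeletal muscle transcripts followed the library number instead: the 18 measured members of that list summed to 1031 and 23.6 CPM in subgroup 2 and to 2154 and 24.1 CPM in subgroup 1.

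**Figure D1:**
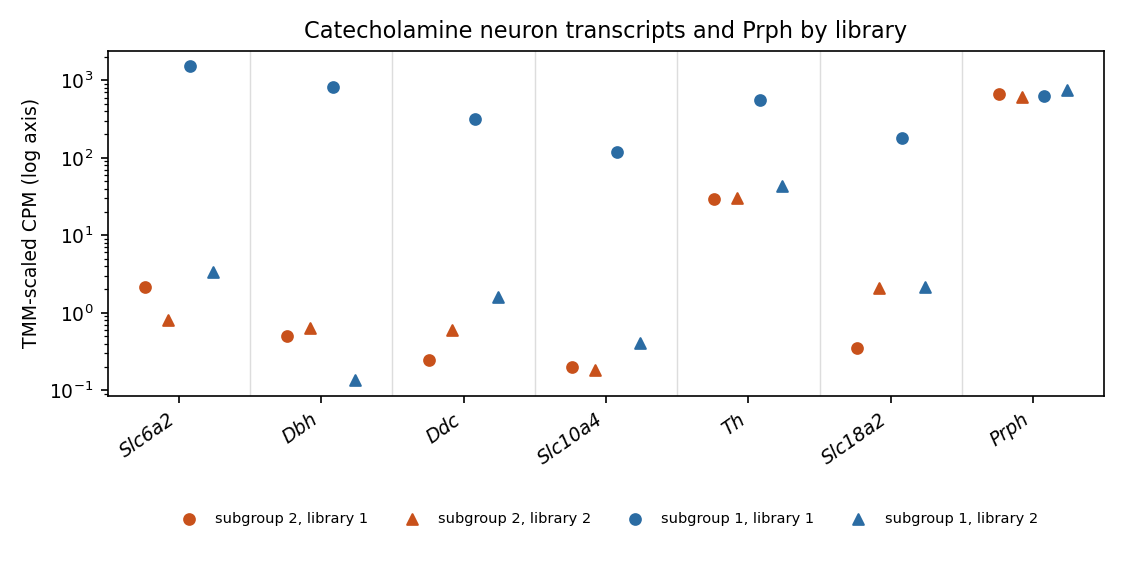
TMM-scaled CPM on a log axis for 6 transcripts of catecholamine neurons and for Prph, with 1 point per library, subgroup 2 in orange and subgroup 1 in blue. Library 1 of subgroup 1 lies far above the other 3 libraries for the first 6 genes, while Prph lies between 603 and 741 CPM in all 4.

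Sex differed between the tumors. Xist, the RNA of the inactive X chromosome, had 13828 counts in library 2 of subgroup 2 and at most 5 counts in the other 3 libraries. Ddx3y, on the Y chromosome, had 277 and 0 counts in subgroup 2 and 840 and 827 counts in subgroup 1. The 2 libraries of subgroup 2 therefore came from different animals. For the other libraries the labels do not state separate animals. The 3 Y-linked genes Ddx3y, Uty and Kdm5d are among those counted as lower in subgroup 2.

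Genes were counted where both libraries of one subgroup lay above both of the other and the ratio of the subgroup means of TMM-scaled CPM was 4 or more. Of 17258 genes tested, 477 (2.76%) were higher in subgroup 2 by this rule and 892 (5.17%) were lower. Without the fold minimum, 5760 genes (33.4%) were higher without overlap and 6001 (34.8%) were lower. The median ratio was 6.13-fold among the 477 and 6.78-fold among the 892. In 69 of the 477 and 107 of the 892 the lower subgroup had 3 counts or fewer in all, so that the ratio is a bound. Without library 1 of subgroup 1, 849 genes were higher in subgroup 2.

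edgeR's quasi-likelihood test, with the GEM-PNST libraries sharing the estimate of the spread, called 0 genes (0% in each direction). The lowest adjusted p was 0.271, and 2145 genes had an unadjusted p under 0.05. DESeq2 on the same libraries called 1222 genes and limma-voom 5361. With the 4 paraspinal libraries alone, edgeR called 2279 genes (13.2%) higher and 2478 (14.4%) lower, among them 266 of the 477 and 597 of the 892. None of the differences given below passed the edgeR test with 8 libraries, so levels are described as higher or lower only where the libraries did not overlap.

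Just inside the 4-fold threshold, Serpine2, a secreted inhibitor of serine proteases, was 4.01-fold higher in subgroup 2. Just outside it lay Rdh10, a retinol dehydrogenase, also without overlap. On the other side, Caskin1, a synaptic scaffold protein, was just inside. Diacylglycerol kinase Dgkh lay just outside.

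**Figure D2:**
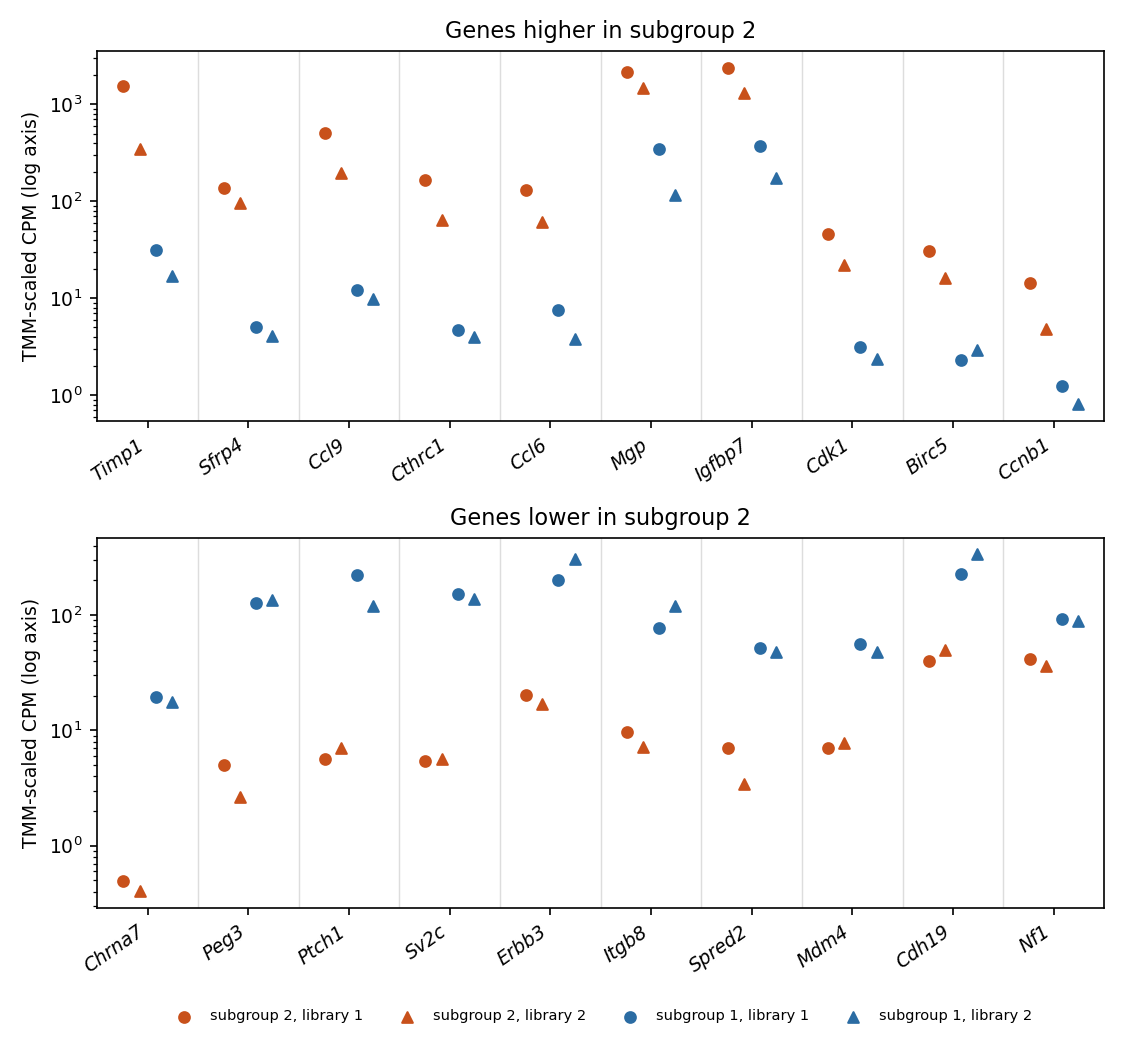
TMM-scaled CPM on a log axis, with 1 point per library, for 10 genes higher and 10 genes lower in subgroup 2 (orange) than in subgroup 1 (blue). In every gene shown both libraries of one subgroup lie on the same side of both libraries of the other, and Nf1 is shown although its 2.35-fold difference is below 4-fold.

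Transcripts of the targeted loci differed by less than 4-fold. Nf1 (chr11:79339693-79581612 in GRCm38) had 41.4 and 36.2 CPM in subgroup 2, against 92.7 and 89.8 CPM in subgroup 1, and did not overlap (log2 fold change -1.23, SE 0.27, edgeR adjusted p = 0.271). Its transcript is long, and with the trend over transcript length described below removed, its log2 difference was 0.06. Gene counts do not distinguish the floxed allele after recombination, so this value does not check the deletion. Cdkn2a (chr4:89274471-89294653), whose count does not separate p16Ink4a from p19Arf, had 20.5 and 36.7 CPM in subgroup 2 and 15.7 and 8.09 CPM in subgroup 1. Its neighbor Cdkn2b, which encodes the CDK4 and CDK6 inhibitor p15Ink4b, had 61 and 76.9 CPM in subgroup 2 and 28.9 and 25.8 CPM in subgroup 1. Both were higher in each subgroup 2 library, Cdkn2a with a log2 fold change of 1.26 (SE 1.11) and Cdkn2b with 1.33 (SE 1.14).

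Of 17 measured genes of the Ink4a/Arf and RB pathway list, 8 were higher in subgroup 2 and 5 lower without overlap, and 0 reached 4-fold. Over all genes, 33.4% were higher and 34.8% lower without overlap, so these counts do not set the list apart. Ccnd1, the D-type cyclin that activates CDK4, had 690.0 and 797 CPM in subgroup 2, against 294 and 317 CPM in subgroup 1. Cdk4 itself had 198 and 144 CPM in subgroup 2 and 70.3 and 67.9 CPM in subgroup 1. Cdkn1a, the p21 inhibitor downstream of p53, had 227 and 264 CPM in subgroup 2 and 119.9 and 185 CPM in subgroup 1. Both inhibitors and activators of CDK4 were thus higher in subgroup 2. Rb1 was lower, with 10.9 and 14.8 CPM in subgroup 2 and 26 and 23.8 CPM in subgroup 1, and so was Cdkn1b, which encodes the inhibitor p27, with 41.2 and 50.4 CPM in subgroup 2 and 67.3 and 84.4 CPM in subgroup 1.

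Mitotic genes made up the gene list with the most members past 4-fold. Of 32 measured genes of mitosis and G2 phase, 21 were higher in subgroup 2 by the 4-fold rule and 0 were lower, against 2.76% and 5.17% of all genes. A further 8 were higher without overlap, which makes 29 of 32. The list's median log2 fold change was 2.18, against -0.0046 over all genes tested. In all 21 counted members library 1 of subgroup 2 was above library 2, and their ratios ran from 4.04-fold to 12.5-fold. With library 1 of subgroup 2 left out, 6 members were past 4-fold, and with library 2 of subgroup 2 left out 25 were.

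Cdk1 (chr10:69335146-69352938), the kinase that drives entry into mitosis, had 46.4 and 21.8 CPM in subgroup 2, against 3.12 and 2.35 CPM in subgroup 1. It was 12.5-fold higher (log2 fold change 3.64, SE 0.58, edgeR adjusted p = 0.271). Its partner cyclin B1, Ccnb1, had 14.3 and 4.8 CPM in subgroup 2 and 1.24 and 0.814 CPM in subgroup 1. Birc5, the survivin subunit of the chromosomal passenger complex, had 30.4 and 16.2 CPM in subgroup 2 and 2.31 and 2.94 CPM in subgroup 1. Hmmr, a spindle-associated hyaluronan receptor, was 7.97-fold higher, and Aurkb, the kinase of the passenger complex, was 6.86-fold higher. For each of these genes the lower subgroup 2 library was still above both subgroup 1 libraries. In GEM-PNST, Cdk1 ran from 63.8 to 149 CPM and lay above both subgroups, without overlap. Mki67, the usual marker of cycling cells, differed least among the genes plotted, with 58.5 and 24.3 CPM in subgroup 2 and 18.3 and 16.1 CPM in subgroup 1. Its transcript is long, at 10061 bases. With the trend over transcript length described below removed, its log2 difference was 2.31, past 4-fold, against 1.13 before it. In bulk tissue a larger share of cycling cells and more of these transcripts per cell cannot be told apart.

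**Figure D3:**
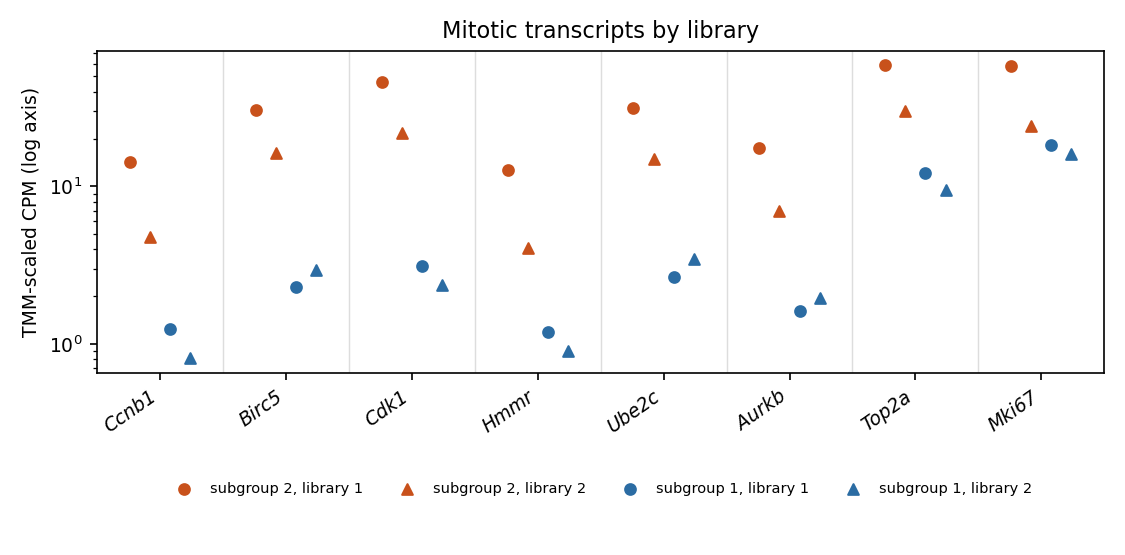
TMM-scaled CPM on a log axis for 8 mitotic transcripts, with 1 point per library, subgroup 2 in orange and subgroup 1 in blue. Both subgroup 2 libraries lie above both subgroup 1 libraries in each gene, with library 1 the higher of the pair in subgroup 2.

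DNA replication genes differed less. Of 30 measured genes of S phase, 3 were higher by the 4-fold rule, 25 were higher without overlap and 1 was lower, with a median log2 fold change of 0.99. Over all genes, 2.76% were higher by the rule, and 33.4% were higher and 34.8% lower without overlap. The 4-fold count was 7 without library 2 of subgroup 2 and 1 without library 1. The 3 were Tk1, Rrm2 and Uhrf1, the first 2 of which make or salvage nucleotides, and Tk1 had 31.8 and 11.9 CPM in subgroup 2 and 2.13 and 2.62 CPM in subgroup 1.

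Promoters of mitotic genes are known to carry a cell cycle homology region, TTTGAA, close to CCAAT boxes, elements through which the DREAM and MuvB complexes and the factor NF-Y time their transcription to G2 phase. These letters were searched on both strands in the promoter window of RefSeq (250 bases before to 50 after each start, build GRCm38.p6), which was held for 27 of the 32 measured mitotic genes and 12632 of all genes tested. TTTGAA occurred in 21 of 27 windows and CCAAT in 22, and both in 19 (70.4%). Over all genes tested, TTTGAA occurred in 14.9% of windows, CCAAT in 42.0% and both in 5.98%. In the 24 windows of S phase genes, TTTGAA occurred in 2 and CCAAT in 16. TTTGAA also occurred in 6 of 22 windows (27.3%) of the senescence secretory list and 7 of 27 (25.9%) of the chemokine list, both described below. A match describes letters and is no measure of binding.

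Cdk1, Ccnb1, Birc5 and Hmmr had the largest ratios of the mitotic list, and the windows of those that held a motif are shown because their transcripts separate the subgroups most clearly. Capitals mark CCAAT and TTTGAA on either strand (ATTGG and TTCAAA on the other), and each sequence runs 5′ to 3′ along the gene. The Cdk1 window (chr10:69352863-69353162, minus strand) held 3 CCAAT boxes and 2 copies of TTTGAA, and the Hmmr window (chr11:40733388-40733687, minus strand) held 5 and 1. The Ccnb1 window (chr13:100786437-100786736, minus strand) held 2 CCAAT boxes and 0 copies of TTTGAA. The Birc5 window held neither motif.
Cdk1: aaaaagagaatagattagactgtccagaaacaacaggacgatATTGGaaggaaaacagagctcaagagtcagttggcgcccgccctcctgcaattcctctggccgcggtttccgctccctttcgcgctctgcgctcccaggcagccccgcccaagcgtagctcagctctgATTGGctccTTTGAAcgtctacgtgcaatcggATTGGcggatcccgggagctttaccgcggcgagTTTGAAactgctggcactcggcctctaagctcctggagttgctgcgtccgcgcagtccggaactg
Hmmr: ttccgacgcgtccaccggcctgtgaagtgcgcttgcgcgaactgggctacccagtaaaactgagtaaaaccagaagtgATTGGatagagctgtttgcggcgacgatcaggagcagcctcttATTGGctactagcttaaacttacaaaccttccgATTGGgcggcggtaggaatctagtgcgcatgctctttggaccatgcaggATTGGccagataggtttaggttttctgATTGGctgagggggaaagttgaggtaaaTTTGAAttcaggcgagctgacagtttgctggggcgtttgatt
Ccnb1: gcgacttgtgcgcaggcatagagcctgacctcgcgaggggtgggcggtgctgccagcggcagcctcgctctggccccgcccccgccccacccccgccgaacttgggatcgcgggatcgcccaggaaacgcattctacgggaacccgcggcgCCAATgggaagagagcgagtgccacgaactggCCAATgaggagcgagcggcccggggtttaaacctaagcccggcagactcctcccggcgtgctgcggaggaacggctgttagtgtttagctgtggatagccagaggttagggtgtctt

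Secreted inflammatory factors were higher in the same subgroup. Of 29 measured genes of the senescence secretory list, 16 were higher in subgroup 2 by the 4-fold rule and 1 was lower, and the median log2 fold change was 2.27. The count was 11 without library 1 of subgroup 2 and 19 without library 1 of subgroup 1. Of the chemokine and chemokine receptor list, 12 of 36 were higher by the rule and 0 were lower, with a median of 1.48. That count was 20 without library 1 of subgroup 1. The lists share 6 of these counted genes, which are 6 of the 16 and 6 of the 12. Over all genes, 2.76% were higher and 5.17% lower by the rule.

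Timp1 (chrX:20870166-20874735), a secreted inhibitor of matrix metalloproteinases, had 1549.9 and 346 CPM in subgroup 2, against 31.8 and 17.1 CPM in subgroup 1. Timp1 lies within Syn1 on the opposite strand, so its reads may not be separable from that gene's. The ratio of means was 38.8-fold (log2 fold change 5.28, SE 2.00, edgeR adjusted p = 0.361), and library 1 of subgroup 2 was well above library 2. In GEM-PNST, Timp1 ran from 2.83 to 673 CPM. That range covered both subgroup 1 libraries and library 2 of subgroup 2, but not library 1 of subgroup 2. Igfbp7, an insulin-like growth factor binding protein released by senescent cells, had 2404 and 1321 CPM in subgroup 2 and 371 and 175 CPM in subgroup 1. The urokinase receptor Plaur had 43.7 and 19.2 CPM in subgroup 2 and 2.99 and 7.1 CPM in subgroup 1. The cytokine Il1b had 21.3 and 7.27 CPM in subgroup 2 and 3.41 and 1.22 CPM in subgroup 1. In all, 24 of the 29 genes were higher without overlap, while Cxcl12, Csf1, Igfbp6 and Vegfa overlapped. The single lower gene was Hgf, the ligand of the MET receptor, with 0.594 and 0.332 CPM in subgroup 2 and 2.26 and 3.71 CPM in subgroup 1.

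Among chemokines, Ccl9 (chr11:83572919-83578636), a ligand of CCR1, had 511 and 195 CPM in subgroup 2, against 12.2 and 9.86 CPM in subgroup 1. It was 32.0-fold higher (SE 1.38 on the log2 scale, edgeR adjusted p = 0.288). The neighboring Ccl6 had 132 and 61.1 CPM in subgroup 2 and 7.6 and 3.8 CPM in subgroup 1. Ccl2, the main attractant of monocytes, had 77.6 and 103 CPM in subgroup 2 and 15.6 and 13.3 CPM in subgroup 1. Ccl9 and Ccl6 are made largely by myeloid cells in mice, and most but not all macrophage genes were higher in subgroup 2. Of 22 measured, 14 were higher without overlap, 2 of them by 4-fold, 2 were lower and 6 overlapped. Over all genes, 33.4% were higher and 34.8% lower without overlap. The list's median log2 fold change was 1.09. Its summed level was 3174 and 2627 CPM in subgroup 2, against 1701 and 905 CPM in subgroup 1. Csf1r and C1qa were present in all 4 libraries. Csf1r overlapped, with 223.7 and 211.6 CPM in subgroup 2 and 211.9 and 77.3 CPM in subgroup 1. The 4-fold count of macrophage genes was 11 without library 1 of subgroup 1 and 0 without library 2. The part of macrophage number in the chemokine difference was not tested.

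AP-1, a dimer of FOS and JUN family proteins downstream of RAS and ERK, binds TGANTCA, and the motif is a known element of metalloproteinase promoters. It occurred in 7 of 22 windows of the senescence secretory list and in 5 of 18 of the metalloproteinase and inhibitor list, which shares members with it. In the chemokine and receptor list it occurred in 3 of 27 windows (11.1%), and over all genes tested in 7.01%. Mmp13, collagenase-3, had 7.58 and 2.69 CPM in subgroup 2 and 0.768 and 0.814 CPM in subgroup 1, and its window (chr9:7272264-7272563, plus strand) is shown with the single match in capitals. The Timp1 window held no match to TGANTCA, and sites that differ from these letters were not searched for.
Mmp13: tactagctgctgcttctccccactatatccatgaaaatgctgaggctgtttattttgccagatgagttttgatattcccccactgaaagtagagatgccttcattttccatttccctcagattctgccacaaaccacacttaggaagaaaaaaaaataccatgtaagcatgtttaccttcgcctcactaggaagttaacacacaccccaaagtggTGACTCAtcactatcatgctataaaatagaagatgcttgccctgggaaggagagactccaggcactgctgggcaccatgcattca

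Fosl1, the AP-1 member most closely tied to ERK output, had 6.39 and 2.92 CPM in subgroup 2 and 0.384 and 0.136 CPM in subgroup 1, a 17.9-fold ratio. It was the only one of 21 measured AP-1 and immediate early genes past 4-fold, while 13 were higher without overlap. Jun was only 1.21-fold higher, with 185 and 174 CPM in subgroup 2 and 158 and 140 CPM in subgroup 1. Of 22 measured ERK feedback genes, 11 were higher and 7 lower without overlap, with a median log2 fold change of 0.39, and Fosl1 was the only one 4-fold higher. Spred2, which carries neurofibromin to the membrane, was 1 of the 2 genes of that list that were 4-fold lower. It had 6.98 and 3.43 CPM in subgroup 2 and 52.2 and 47.8 CPM in subgroup 1, a difference of 9.60-fold. Dusp4, the other, a phosphatase that inactivates ERK, had 2.87 and 1.7 CPM in subgroup 2 and 8.2 and 11.7 CPM in subgroup 1. Of 18 measured genes of the RAS and GTPase-activating protein list, 5 were higher and 10 lower without overlap. Of the lower genes 2, Spred2 among them, were past 4-fold, and 1 was with the trend over transcript length removed. The list's median log2 difference was 0.18 with the trend removed and -0.26 before it. Over all genes, 33.4% were higher and 34.8% lower without overlap, 2.76% and 5.17% by 4-fold. The AP-1, ERK feedback and RAS counts are read beside these shares.

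Many matrix transcripts were higher in subgroup 2. Of 26 measured endoneurial fibroblast and matrix glycoprotein genes, 16 were higher without overlap, 3 of them by 4-fold, and 2 were lower. Tnc, tenascin-C, a matrix protein of injured nerve, had 492 and 234 CPM in subgroup 2 and 65.7 and 24 CPM in subgroup 1. Mgp, an inhibitor of matrix calcification, had 2184 and 1494 CPM in subgroup 2 and 349 and 116 CPM in subgroup 1. The fibroblast markers Dcn, Lum and Pdgfra did not follow: they summed to 4123 and 4180 CPM in subgroup 2 and to 4388 and 2174 CPM in subgroup 1. The 4-fold count of this list was 10 without library 1 of subgroup 1. Of 34 collagen chains, 19 were higher and 6 lower without overlap. Col8a1 alone was 4-fold higher, with 821 and 515 CPM in subgroup 2 and 147 and 55.2 CPM in subgroup 1. Col24a1 was the only chain 4-fold lower. Over all genes, 33.4% were higher and 34.8% lower without overlap, 2.76% and 5.17% by 4-fold. The 4-fold counts of collagen chains were near or below these shares.

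Of 14 measured genes of pericytes and smooth muscle, 8 were higher and 1 lower without overlap, and 5 were higher by 4-fold. Over all genes, 33.4% were higher and 34.8% lower without overlap, and 2.76% were higher by 4-fold. Acta2, smooth muscle actin, had 97 and 233 CPM in subgroup 2, against 24.9 and 13.4 CPM in subgroup 1. Tagln, transgelin, had 237 and 345 CPM in subgroup 2 and 43.6 and 65.8 CPM in subgroup 1. In all 5 counted genes library 2 of subgroup 2 was above library 1, whereas library 1 was above library 2 in all 21 counted mitotic genes and in 13 of the 16 secretory ones. Without library 2 of subgroup 2 the count was 3, as it was with the trend over transcript length removed. Sfrp4 and Wif1, which encode secreted WNT antagonists, were among the larger ratios. Sfrp4 had 139 and 97.3 CPM in subgroup 2 and 5.08 and 4.07 CPM in subgroup 1. Wif1 had 159 and 45.9 CPM in subgroup 2 and 11.5 and 2.49 CPM in subgroup 1. The WNT pathway list was mixed. Of 46 measured genes, 4 were higher and 0 lower by 4-fold. Without overlap 9 were higher and 16 lower, 21 overlapped, and the median log2 fold change was -0.27.

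The remaining genes with the largest ratios above 10 CPM included several secreted proteins. Cthrc1, a secreted protein of activated fibroblasts, had 167 and 64.4 CPM in subgroup 2 and 4.65 and 3.98 CPM in subgroup 1. Retnla, a product of alternatively activated macrophages, had 155 and 24.5 CPM in subgroup 2 and 0.512 and 1.13 CPM in subgroup 1. For Fga, a fibrinogen chain with 0 counts in subgroup 1, the ratio of at least 282-fold rests on library 1 of subgroup 2, which had 36.7 CPM against 0.48 CPM in library 2.

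Some Schwann lineage transcripts were much lower in subgroup 2 and others were not. Of 18 measured lineage genes outside myelin, 10 were lower in subgroup 2 without overlap and 0 were higher. The 4-fold count was 3, also with each paraspinal library left out in turn. Over all genes, 34.8% were lower and 33.4% higher without overlap, and 5.17% were lower by 4-fold. Erbb3 (chr10:128567523-128589652), the receptor through which axonal neuregulin keeps Schwann cells alive, had 20.3 and 16.9 CPM in subgroup 2, against 201 and 306 CPM in subgroup 1. It was 13.7-fold lower (log2 fold change -3.77, SE 1.90, edgeR adjusted p = 0.471). Itgb8, an integrin chain that activates TGF-beta, had 9.61 and 7.12 CPM in subgroup 2 and 78 and 121 CPM in subgroup 1. The cadherin of Schwann cell precursors, Cdh19, had 39.6 and 49.9 CPM in subgroup 2 and 229 and 336 CPM in subgroup 1. Sox10, the master transcription factor of the lineage, did not separate the subgroups, with 418 and 432 CPM in subgroup 2 and 311 and 457 CPM in subgroup 1. S100b overlapped as well. In GEM-PNST Erbb3 ran from 0 to 7.18 CPM, below both subgroups.

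Myelin genes did not separate the subgroups either. Of 22 measured, 2 were higher and 4 lower without overlap, 0 passed 4-fold, and the median log2 fold change was -0.11. Repair Schwann cell genes were higher in 6 of 18 cases by 4-fold, against 2.76% of all genes, and all 6 encode secreted factors. The 4-fold count was 4 without library 1 of subgroup 2 and 3 with the trend over transcript length removed. Without overlap, 9 of the 18 were higher and 4 lower, against 33.4% and 34.8% of all genes, and 5 overlapped. The list summed to 1192 and 1074 CPM in subgroup 2 and to 1385 and 1049 CPM in subgroup 1, which overlap. Gdnf had 9.11 and 6.24 CPM in subgroup 2 and 1.45 and 0.362 CPM in subgroup 1. It encodes a neurotrophic factor that denervated Schwann cells release. Ngfr, the low-affinity neurotrophin receptor of repair cells, went the other way, with 188 and 156 CPM in subgroup 2 and 671 and 342 CPM in subgroup 1.

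Igf1 and Fgf2 are growth factors for Schwann cells in culture. Igf1 had 123 and 113 CPM in subgroup 2 and 27 and 9.86 CPM in subgroup 1. Fgf2 had 0.297 and 0.332 CPM in subgroup 2 and 3.8 and 4.61 CPM in subgroup 1. Of 45 measured growth factors and ligands, 6 were higher and 3 lower by 4-fold, against 2.76% and 5.17% of all genes, so that the lower count is near the share over all genes. Receptor tyrosine kinases were lower in 7 of 31 cases by 4-fold and higher in 0, with a median log2 fold change of -1.19. That count was 4 without library 1 of subgroup 2, and 3 with the trend over transcript length removed, when the median log2 difference was -0.27. The 7 were Erbb3, Ltk and Musk, which were past 4-fold also with the trend removed, and Epha5, Ror1, Erbb4 and Epha3, which were not.

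Ion channels were the list with the most members 4-fold lower in subgroup 2. Of 42 measured voltage-gated and potassium channel genes, 35 were lower in subgroup 2 without overlap, 11 of them by 4-fold, and 2 were higher. The median log2 fold change was -1.51, and the 4-fold count was 11 to 13 with each paraspinal library left out. Over all genes, 34.8% were lower and 33.4% higher without overlap, and 5.17% were lower by 4-fold. Cacna1e, the R-type calcium channel, had 0.594 and 0.406 CPM in subgroup 2, against 9.9 and 8.32 CPM in subgroup 1. Scn1a, a sodium channel of large neurons, had 5.4 and 4.84 CPM in subgroup 2 and 30.4 and 56.2 CPM in subgroup 1. Kcnj3, a potassium channel opened by G proteins, had 0.198 and 0.111 CPM in subgroup 2 and 5.81 and 4.25 CPM in subgroup 1. In these 3 both libraries of subgroup 1 were far above subgroup 2. Kcnq3 and Scn3a were uneven within subgroup 1. Kcnq3 had 0.594 and 0.332 CPM in subgroup 2 and 22.2 and 6.65 CPM in subgroup 1, and Scn3a had 0.693 and 0.48 CPM in subgroup 2 and 25.2 and 2.58 CPM in subgroup 1.

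Of 30 measured pan-neuronal genes, 7 were lower by 4-fold and 0 were higher, and the count was 3 without library 1 of subgroup 1 and also 3 with the trend over transcript length removed. Sv2c (chr13:95954594-96132577), a synaptic vesicle protein, had 5.45 and 5.61 CPM in subgroup 2, against 151 and 138 CPM in subgroup 1. It was 26.2-fold lower (log2 fold change -4.71, SE 0.65, edgeR adjusted p = 0.271). Syt1, the calcium sensor of vesicle release, had 49.9 and 40.7 CPM in subgroup 2 and 515 and 118 CPM in subgroup 1. Of 29 sensory neuron genes, 4 were lower by 4-fold, 14 were lower and 3 higher without overlap. Over all genes, 5.17% were lower by 4-fold, and 34.8% were lower and 33.4% higher without overlap. Trpm8, the cold receptor, had 1.34 and 0.591 CPM in subgroup 2 and 6.06 and 24.5 CPM in subgroup 1. The summed level of the list was 4365 and 3250.2 CPM in subgroup 2 and 4148 and 5813 CPM in subgroup 1, which overlap. Whether fewer neurons were sampled in subgroup 2 was not tested.

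Other large differences concerned signalling and imprinted genes. Ptch1 (chr13:63508328-63573598), the hedgehog receptor and a target of the pathway, had 5.6 and 7.01 CPM in subgroup 2, against 223 and 119.6 CPM in subgroup 1. It was 27.2-fold lower (log2 fold change -4.76, SE 0.71, edgeR adjusted p = 0.271). It ran from 0.615 to 2.48 CPM in GEM-PNST. The other 14 measured hedgehog genes held 1 member past 4-fold, Hhip, with 0.693 and 1.4 CPM in subgroup 2 and 0.299 and 0.0904 CPM in subgroup 1. Peg3 (chr7:6703892-6730431), an imprinted zinc finger gene expressed from the paternal copy, had 5.05 and 2.66 CPM in subgroup 2 and 128 and 135 CPM in subgroup 1. H19, a maternally expressed imprinted RNA, had 159 and 32.3 CPM in subgroup 2 and 12.6 and 5.47 CPM in subgroup 1, and was uneven within subgroup 2. Chrna7, a nicotinic receptor subunit, had 0.495 and 0.406 CPM in subgroup 2 and 19.6 and 17.7 CPM in subgroup 1. Uhmk1, a kinase that binds splicing factors, was 53.8-fold lower, and Cep85l, a centrosomal protein, was 48.8-fold lower. Mdm4, the inhibitor of p53, had 7.03 and 7.71 CPM in subgroup 2 and 56.1 and 47.4 CPM in subgroup 1. With the trend over transcript length removed its log2 difference was -1.88, short of 4-fold. Of 23 measured p53 pathway genes it was the only one 4-fold lower, and Gtse1 the only one 4-fold higher, and with the trend removed 2 were higher and 0 lower. Over all genes, 2.76% were higher and 5.17% lower by 4-fold before the trend was removed.

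A trend over transcript length ran beside these differences. Among genes with a mean of at least 5 CPM, the median difference in log2 CPM between subgroup 2 and subgroup 1 was 0.76 in the shortest of 5 length bins of equal size, 0.26, -0.06 and -0.39 in the next 3, and -0.81 in the longest. Between the libraries of one subgroup the same medians stayed between -0.06 and 0.02 in both subgroups. In the shortest bin 3.99% of genes were 4-fold higher and 0.434% lower, against 0.260% higher and 10.9% lower in the longest bin. The median transcript length was 1881 bases among the genes counted higher and 5090.5 bases among those counted lower, against 3088.5 bases over all. The part of RNA quality or library preparation in this trend was not tested.

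**Figure D4:**
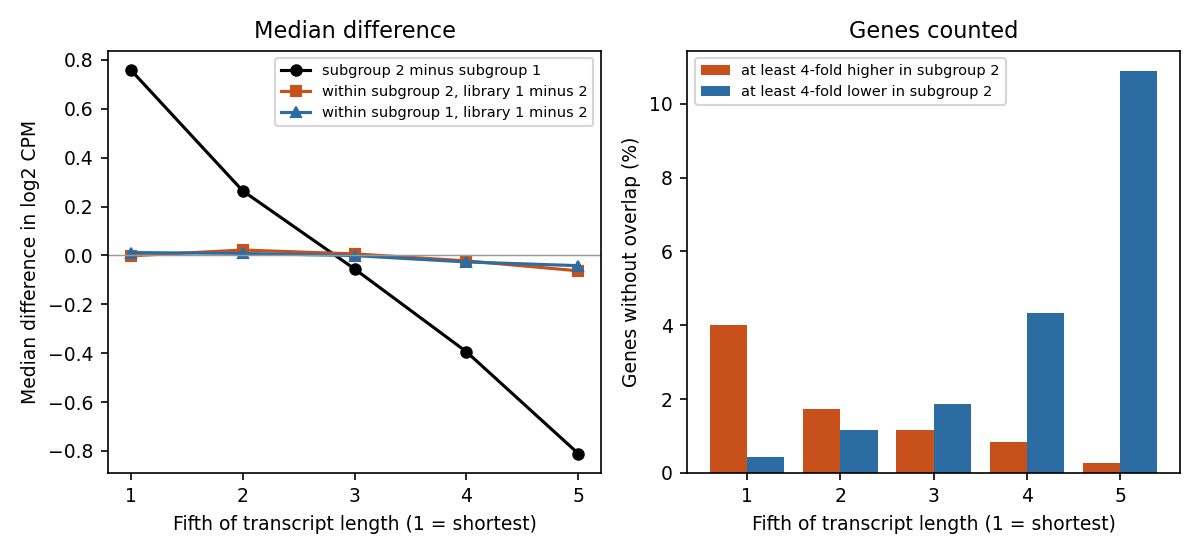
Left, median difference in log2 CPM by bin of transcript length for genes with a mean of at least 5 CPM, between the subgroups (black) and between the libraries of each subgroup (colored). Right, percent of genes in each bin at least 4-fold higher (orange) or lower (blue) in subgroup 2 without overlap. The difference between subgroups falls with length while the differences within subgroups stay near 0.

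With the trend removed from each library, 313 of 15230 genes with a length (2.06%) were higher and 460 (3.02%) lower, against 361 (2.37%) and 702 (4.61%) of the same genes on the same log2 scale before. Of the genes counted above that had a length, 228 of 398 higher and 422 of 808 lower were counted again. Lists differed in how far they moved. The mitotic list had a median log2 difference of 2.25 with the trend removed and 2.03 before it, and 19 members past 4-fold. The senescence secretory list had 1.67 and 2.13, with 11 members past 4-fold, and the chemokine list 1.17 and 1.42, with 7 members. Channels had -0.73 and -1.29, with 6 members. Collagen chains, whose transcripts are long, had 1.47 with the trend removed and 0.56 before it.

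Several lists of short or of long transcripts lost most of their difference, while channels kept more of it and integrin and laminin chains, with a median length of 5841.5 bases, had 0.59 with the trend removed and -0.05 before it. All 29 cytosolic ribosomal protein genes, with a median length of 906 bases, were higher in subgroup 2 without overlap. Their median log2 difference was 0.31 with the trend removed and 1.12 before it. Oxidative phosphorylation genes had 0.12 and 0.93. Semaphorin, plexin, ephrin and SLIT genes, with a median length of 5771 bases, had 0.09 and -0.88, and receptor tyrosine kinases had -0.27 and -0.96. Among single genes, Cdkn2a had a log2 difference of 0.38 with the trend removed, against 1.27 before it. Mdm4, Syt1, Scn1a, Tagln, Il1b and Ccl2 were no longer past 4-fold. Erbb3 had -2.96, Ptch1 -3.71, Peg3 -4.06, Timp1 4.07, Ccl9 4.88 and Cdk1 3.97 with the trend removed, all still past 4-fold.

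**Figure D5:**
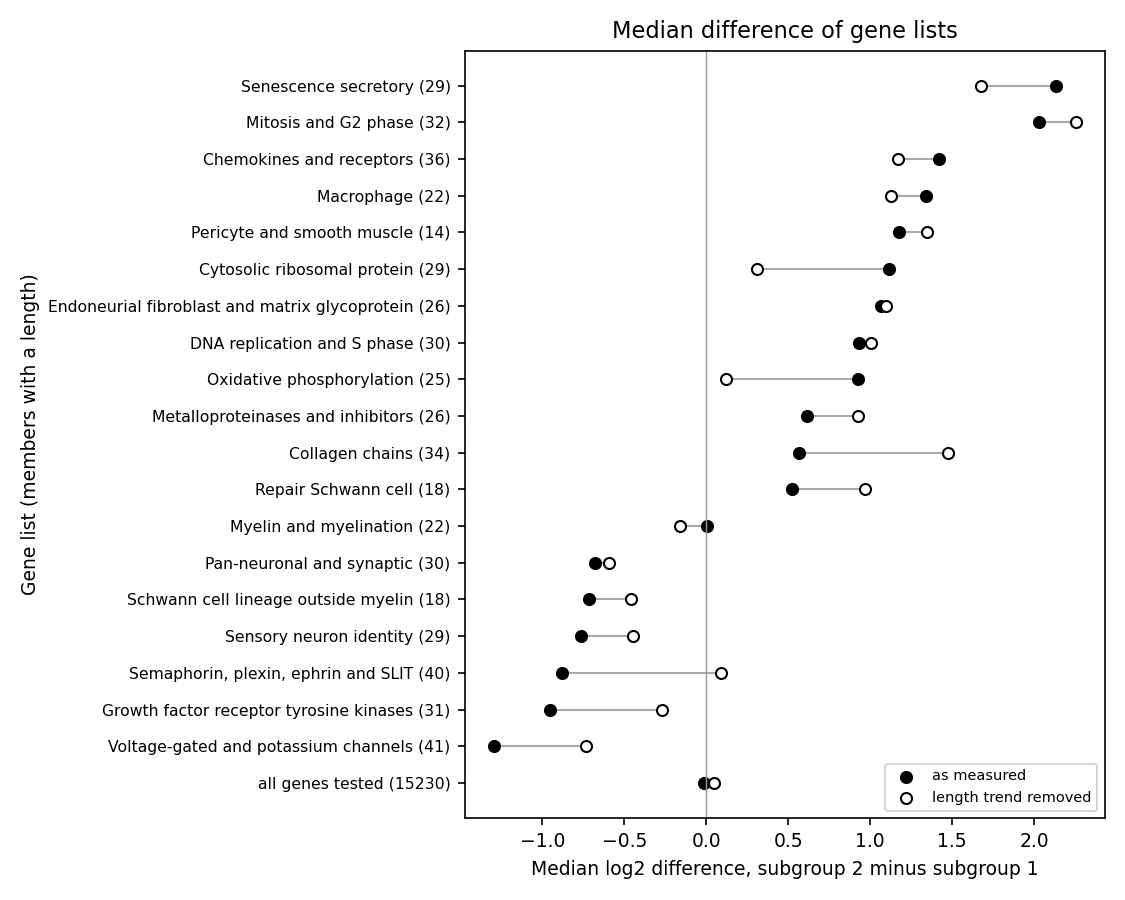
Median log2 difference of 19 gene lists and of all genes tested, subgroup 2 minus subgroup 1, as measured (filled) and with the trend over transcript length removed (open), with the number of members that have a length in brackets. The mitotic list lies at 2.03 and 2.25, while ribosomal protein, oxidative phosphorylation and semaphorin lists move most of the way to 0.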

How the data were processed

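Whole-number read counts for 24062 genes were deposited, unnormalised, and the authors made them with TopHat, HISAT2 and featureCounts on mm10, per the submitters' processing notes. These give no version or role for a tool, and the annotation and strand setting are not given in the sources used here, so overlapping and antisense genes are uncertain. Per the labels' protocols, the RNeasy Plus Micro kit served for RNA extraction and the Nextera XT kit for library construction. Columns were matched to samples by the sample codes in the labels. 

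The 17258 genes that passed edgeR's filter over all 20 libraries were used. CPM were scaled with TMM factors from the 4 paraspinal and 4 GEM-PNST libraries (edgeR 4.0.16, R 4.3.3). Log2 CPM used a prior count of 2. A subgroup with 3 counts or fewer was set to 3 counts over the subgroup, which covers counting error only. Genes were tested with edgeR's quasi-likelihood test in 3 groups, with Benjamini-Hochberg adjustment at a threshold of 0.05. DESeq2 1.42.0 and limma 3.58.1 were alternatives. Gene positions and transcript lengths are from GENCODE M21 (GRCm38, the assembly of mm10), with a length for 15230 of the genes tested. The length trend was removed with loess on log10 length, fitted to each library's difference from the mean of the 4. The procedures were tested on simulated data.

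The subgroups, the 57 gene lists and the rule for named genes were chosen with earlier results of these data known. The rule takes Nf1, Cdkn2a and Cdkn2b, the 15 counted genes each way with the largest ratio and a mean of at least 10 CPM in the higher subgroup, and up to 4 counted members per list, or 2 with the highest CPM where fewer than 2 were counted. A selection is printed. Other genes named were chosen after their values were seen. No pair of paraspinal libraries was alike within counting noise (chi-square per degree of freedom 47.2 within subgroup 2 and 80.7 within subgroup 1). The sample codes of library 1 of subgroup 2 and library 1 of subgroup 1 begin with the same characters, and the labels do not say whether these share an animal. P-values and SE of single genes weigh a difference against the spread estimated over all 8 libraries, GEM-PNST included. They do not measure the spread between the paraspinal libraries alone. Some genes are not reported here.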

Additional observations from a re-analysis of the deposited data

Results flagged for a closer look

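Cdk1 had 63.8 CPM in GEM-PNST library 3, far from the other GEM-PNST libraries at 141 to 149 CPM. Ccnb2, which encodes cyclin B2, had 23.5 CPM in the same library, again far below the other 3. Both values still lay above all 4 paraspinal values of the same gene, among which Ccnb2 had 19.6 and 7.09 CPM in subgroup 2 and 2.65 and 1.04 CPM in subgroup 1. Of 6 genes given with GEM-PNST levels these 2 stood apart in this way, and chance marks about 1 in 20 such groups of 4 samples. Both are cell cycle genes and stood apart in the same library, so they are not 2 independent events. The 2 of 6 therefore cannot show an excess over that rate.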

How the results depend on the processing

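The counts of genes without overlap and at least 4-fold apart, 477 higher and 892 lower in subgroup 2, were 2177 and 2686 with a 2-fold minimum and 145 and 365 with an 8-fold minimum. With the trend over transcript length removed, an alternative chosen after seeing the data, they were 313 and 460. With each paraspinal library left out in turn, 414 to 849 genes were higher and 956 to 988 lower, the 849 without library 1 of subgroup 1. RLE factors, the other filters and the prior count kept both counts within 1.5 times, and RLE factors shifted the median log2 fold change of all genes by -0.03. Requiring 4-fold in both same-numbered pairs, the form a replicate block takes here, gave 354 and 628. edgeR called 0 genes with 8 libraries, with the replicate block, and without any single paraspinal or GEM-PNST library. It called 2279 higher and 2478 lower with the 4 paraspinal libraries alone, and 491 and 731 with all 20 libraries in 1 fit. DESeq2 called 509 and 713, and limma-voom with sample weights 2395 and 2966. The differences between libraries 1 and 2 of the subgroups had a correlation of 0.122 across genes and of 0.205 across the 12169 genes with a mean of at least 5 CPM. With 2 pairs this does not settle whether the numbers pair the samples. Of 2165 values of single genes under the alternatives, 297 moved by more than the spread between libraries and 50 changed sign, 30 of them with a library left out and 16, Nf1 included, with the length trend removed. None of the sign changes concerned a gene past 4-fold (0 of 50). With 2 libraries a side, no count here separates the subgroups from the individual tumors, and the depth of genes below 1 CPM limits their ratios.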

Other observations

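Of 20 measured endothelial genes, 10 were higher in subgroup 2 without overlap, 2 of them by 4-fold, and 2 were lower, against 33.4% higher, 2.76% 4-fold higher and 34.8% lower over all genes. Plvap, which forms the diaphragms of fenestrated capillaries, had 103 and 58.9 CPM in subgroup 2 and 16 and 5.42 CPM in subgroup 1. Emcn, endomucin of capillaries and veins, had 59.4 and 40.4 CPM in subgroup 2 and 10.3 and 8.09 CPM in subgroup 1. Pecam1, Cdh5 and Kdr, the general endothelial markers, summed to 144.5 and 141.3 CPM in subgroup 2 and to 136.5 and 67.63 CPM in subgroup 1.

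Counts for lipid synthesis and interferon response genes are given beside those shares as values of the lists. Of 24 sterol synthesis genes, 10 were higher and 11 lower without overlap, and of 17 fatty acid synthesis genes 3 were higher and 10 lower, with Stard4 and Gpam the only ones past 4-fold, both lower in subgroup 2. Of 27 interferon response genes, 5 were higher and 7 lower. T and NK cell genes summed to 13.6 and 15.9 CPM in subgroup 2 and to 17.8 and 8.68 CPM in subgroup 1. Mast cell genes summed to 179 and 125 CPM in subgroup 2 and to 215 and 121 CPM in subgroup 1.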
